A study of Mus musculus with 4 samples.

Results

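Vascular endothelial growth factor (VEGF), angiopoietin and apelin signaling was described across the cells of mouse lung tumors through 10 genes, chosen by symbol from the 31055 features of the matrix. They were the ligands Vegfa, Pgf and Apln, the VEGF receptors Flt1, Kdr and Flt4, the co-receptor Nrp1, the Tie receptors Tek and Tie1, and the apelin receptor Aplnr. All 10 were present in the feature table. They were measured by droplet-based 3′ single-cell RNA sequencing of total viable cells from tumors of 4 female mice. All 4 carried Lkb1XTR/XTR. At Rosa26, the 2 Restored mice carried the alleles LSL-tdTomato and FLPo-ERT2, and the 2 Non-Restored mice carried LSL-tdTomato without FLPo-ERT2, the recombinase that removes the gene trap from Lkb1. All 4 received Lenti-Cre into the airways, grew tumors for 16 weeks and were given 4 mg doses of tamoxifen for 2 weeks, so tumors began with Cre-trapped Lkb1 in both groups and both received tamoxifen, while only in Restored mice could the trap then be removed.

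The matrix held 20351 cells and 58624795 unique molecular identifiers (UMIs, counts of captured RNA molecules), with a median of 1960 UMIs per cell. No file used here ties a cell to a mouse, so Restored and Non-Restored tumors were not compared, barcodes shared between libraries could not be counted, and the matrix is 1 sample without replicates. No p-value is given. Values are CPM, the UMIs of a gene over the pooled cells of a type scaled to a total of 1000000, each with its exact 95% Poisson interval, and ratios of CPM carry an exact conditional interval. These intervals cover counting error only, not the spread between mice, and unequal shares of the mice in the cell types cannot be told apart from differences between the types. "Higher" and "lower" below mean that the interval of the log2 ratio did not reach 0.

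VEGF-A signals to endothelial cells mainly through the tyrosine kinase receptor VEGFR2, encoded by Kdr, while VEGFR1, encoded by Flt1, binds VEGF-A and placental growth factor (Pgf) tightly and signals weakly, and so can act as a decoy. VEGFR3, encoded by Flt4, answers to VEGF-C and VEGF-D and is the main receptor of lymphatic vessels. Tek encodes Tie2, the receptor of the angiopoietins, and Tie1 is its partner without a known high-affinity angiopoietin ligand. In the lung, epithelial VEGF-A is needed for the alveolar capillary cells that face the gas-exchange surface. These are known as aerocytes (marked by Car4 and Ednrb), and they lie beside general capillary cells (marked by Gpihbp1). Apelin is known as a gene of aerocytes and its receptor as a gene of general capillary cells.

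Cells were assigned to types by counting detected marker genes, none of them a member. Of 19488 cells that passed the filters on genes and mitochondrial share, 17826 were assigned. They included 1875 endothelial and 981 epithelial cells. Endothelial cells were split, in this order, into 18 lymphatic-like cells, 244 aerocyte-like cells (at least 2 UMIs of Car4 and Ednrb together), 461 Vwf-positive cells (at least 1 UMI of Vwf, a gene of larger vessels), 953 general capillary-like cells (at least 1 UMI of Gpihbp1) and 199 cells that passed no gate. Pecam1 and Cdh5, themselves markers of the endothelial gate, stood at 833 and 955 CPM in endothelial cells. Outside that gate, Col1a1 stood at 0.760 CPM there and Ptprc, a leukocyte gene, at 37.3 CPM. The subsets overlapped at their borders: 184 of the 244 aerocyte-like cells also passed the Gpihbp1 gate and 26 also passed the Vwf gate. Epithelial cells were split by Hopx and by the sum of 8 alveolar type II (ATII) genes at 10000 CPM into 564 ATII-like cells, 188 cells with ATII genes and Hopx, 113 cells with Hopx and few ATII UMIs, called ATI-like, and 116 with neither. The last group had Ptprc at 253 CPM. It entered no comparison of epithelial subsets, but it is part of the epithelial total and of the cells other than endothelial. ATI genes outside the gate were higher in the ATI-like cells, with Ager at 3598 CPM against 664 CPM in ATII-like cells and Akap5 at 387 against 11.7 CPM. The reporter TdTomato stood at 5593 CPM in the ATII-like cells, 4619 CPM in the ATI-like cells and 199 CPM in endothelium. It also stood at 2664 CPM in alveolar macrophages, so it does not by itself mark tumor cells.

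On mm10 (GENCODE vM21) Kdr spans chr5:75932827-75978458 and Flt1 chr5:147561604-147726011, both on the minus strand, Tek spans chr4:94739289-94874976 on the plus strand and Tie1 chr4:118471191-118490061 on the minus strand. No member overlapped another gene of the feature table. The 250 bases before the RefSeq start of these 4 receptor genes are shown as a choice among the members that were high in endothelium. RefSeq and GENCODE starts differ for Tie1 and Kdr. Most of the Tie1 window, and a few bases of the Kdr window, lie inside the GENCODE span given above. They come from RefSeq (GRCm38.p6), 5′ to 3′ on the strand of the gene, with capitals at GGAA and its reverse complement TTCC, the core letters bound by ETS factors such as Erg and Fli1.
Kdr, chr5:75978456-75978705, minus strand: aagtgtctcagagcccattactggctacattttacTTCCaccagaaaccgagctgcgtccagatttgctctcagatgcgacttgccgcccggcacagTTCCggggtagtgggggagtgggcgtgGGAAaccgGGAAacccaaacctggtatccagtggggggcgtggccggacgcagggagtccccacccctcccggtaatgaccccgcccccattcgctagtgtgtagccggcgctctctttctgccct
Flt1, chr5:147726012-147726261, minus strand: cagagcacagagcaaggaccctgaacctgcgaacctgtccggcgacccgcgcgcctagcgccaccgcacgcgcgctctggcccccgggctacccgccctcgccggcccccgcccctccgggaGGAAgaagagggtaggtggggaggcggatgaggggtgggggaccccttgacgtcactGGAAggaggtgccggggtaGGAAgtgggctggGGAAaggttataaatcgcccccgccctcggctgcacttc
Tie1, chr4:118489850-118490099, minus strand: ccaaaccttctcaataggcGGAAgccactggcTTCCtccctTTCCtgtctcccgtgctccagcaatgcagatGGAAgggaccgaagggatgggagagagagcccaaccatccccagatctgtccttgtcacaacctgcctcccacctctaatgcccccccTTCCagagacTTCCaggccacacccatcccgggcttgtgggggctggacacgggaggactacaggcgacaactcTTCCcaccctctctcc
Tek, chr4:94739039-94739288, plus strand: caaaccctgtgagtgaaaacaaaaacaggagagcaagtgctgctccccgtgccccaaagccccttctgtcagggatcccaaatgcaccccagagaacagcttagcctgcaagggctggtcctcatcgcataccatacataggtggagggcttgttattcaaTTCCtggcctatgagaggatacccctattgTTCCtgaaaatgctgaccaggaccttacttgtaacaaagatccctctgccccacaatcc
The Tie1 window held 7 matches, a number reached by 3.82% of all 32851 promoter windows of that length. Kdr and Flt1 held 4 each, a number reached by 33.4%, and Tek held 2, reached by 76.8%. The median window held 3 matches and 93.4% held at least 1, so a match by itself does not mark these genes. Windows were found for 9 of the 10 members. Of those not shown, Nrp1 held 4 matches, Apln 3, Flt4 2, Vegfa 6 and 2, and Pgf 0 and 0.

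Vegfa was detected in epithelium and endothelium at like levels. Over all epithelial cells, including those with neither Hopx nor many ATII UMIs, it stood at 155 CPM (632 UMIs). Endothelial cells stood at 163 CPM (644 UMIs), with a log2 ratio of 0.07 for endothelial over epithelial cells (-0.09 to 0.23). Together these lineages held 33.9% and 34.5% of the Vegfa UMIs of all assigned cells, and interstitial or C1q macrophages held 17.7%. The highest estimate was that of ATI-like cells, at 270 CPM (216 to 334), followed by Vwf-positive endothelial cells at 209 CPM (183 to 238), cells with ATII genes and Hopx at 184 CPM (155 to 217), general capillary-like cells at 178 CPM (159 to 198) and ATII-like cells at 153 CPM (138 to 169). The first 2 could not be separated (log2 ratio 0.37, -0.0070 to 0.73), while ATI-like cells were higher than general capillary-like cells (0.61, 0.25 to 0.95). Next to each other in this order, Vwf-positive and general capillary-like cells (0.24, -0.01 to 0.48) and general capillary-like and ATII-like cells (0.21, -0.0031 to 0.43) were not separated at this depth, but Vwf-positive cells were higher than ATII-like cells (0.45, 0.21 to 0.69).

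The 199 endothelial cells that passed no gate stood at 131 CPM of Vegfa (95.4 to 176) and were not separated from ATII-like (log2 ratio -0.22, -0.71 to 0.23) or general capillary-like cells. Aerocyte-like cells stood at 64.0 CPM (45.5 to 87.4) and fibroblast or stromal cells at 57.1 CPM (37.0 to 84.4), both lower than ATII-like cells, which exceeded them by 1.26 (0.78 to 1.77) and 1.42 (0.84 to 2.07) on the log2 scale. Among leukocytes, neutrophils stood at 43.0 CPM, interstitial or C1q macrophages at 32.1 CPM and monocytes at 25.5 CPM, while alveolar macrophages stood at 2.88 CPM. Interstitial or C1q macrophages were 11.1-fold above alveolar macrophages (7.72 to 16.5). T cells at 2.32 CPM and B or plasma cells at 1.64 CPM set the background, with a UMI in 10 of 4448 and 0 of 1771 cells once every cell was drawn down to 1000 UMIs; 0 of 1771 allows a share of up to 0.169%. At that depth 29.5% of ATI-like, 13.9% of ATII-like, 15.6% of general capillary-like, 21.1% of Vwf-positive and 4.31% of aerocyte-like cells had a Vegfa UMI; the unthinned shares were 44.2, 41.0, 25.9, 34.9 and 13.5%.

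Pgf, which binds Flt1 but not Kdr, had a different source. Interstitial or C1q macrophages held 84.6% of its UMIs, at 81.5 CPM (76.1 to 87.2), against 3.88 CPM (2.80 to 5.22) in alveolar macrophages, a 21.0-fold difference (15.5 to 29.3). Fibroblast or stromal cells stood at 18.3 CPM (8 UMIs) and dendritic cells at 11.7 CPM (16 UMIs), and ATII-like and general capillary-like cells had 1 UMI each. The macrophage signal was uneven: 433 of 2324 cells had a Pgf UMI, 35 had at least 5, and the top 232 cells held 76.1% of the UMIs. Lymphatic-like cells reached 375 CPM (210 to 618), from 15 UMIs in 10 of 18 cells.

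Apln, the apelin ligand, was found almost only in endothelium, which held 94.5% of its 127 UMIs in assigned cells. Aerocyte-like cells alone held 52.8%, from 67 UMIs at 110 CPM (85.1 to 140). General capillary-like cells stood at 19.1 CPM (36 UMIs, 13.4 to 26.5) and Vwf-positive cells at 12.0 CPM (13 UMIs, 6.41 to 20.6). ATII-like, ATI-like and interstitial or C1q macrophage cells had 0 Apln UMIs, which allows up to 1.21, 9.43 and 0.291 CPM.

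**Figure D1:**
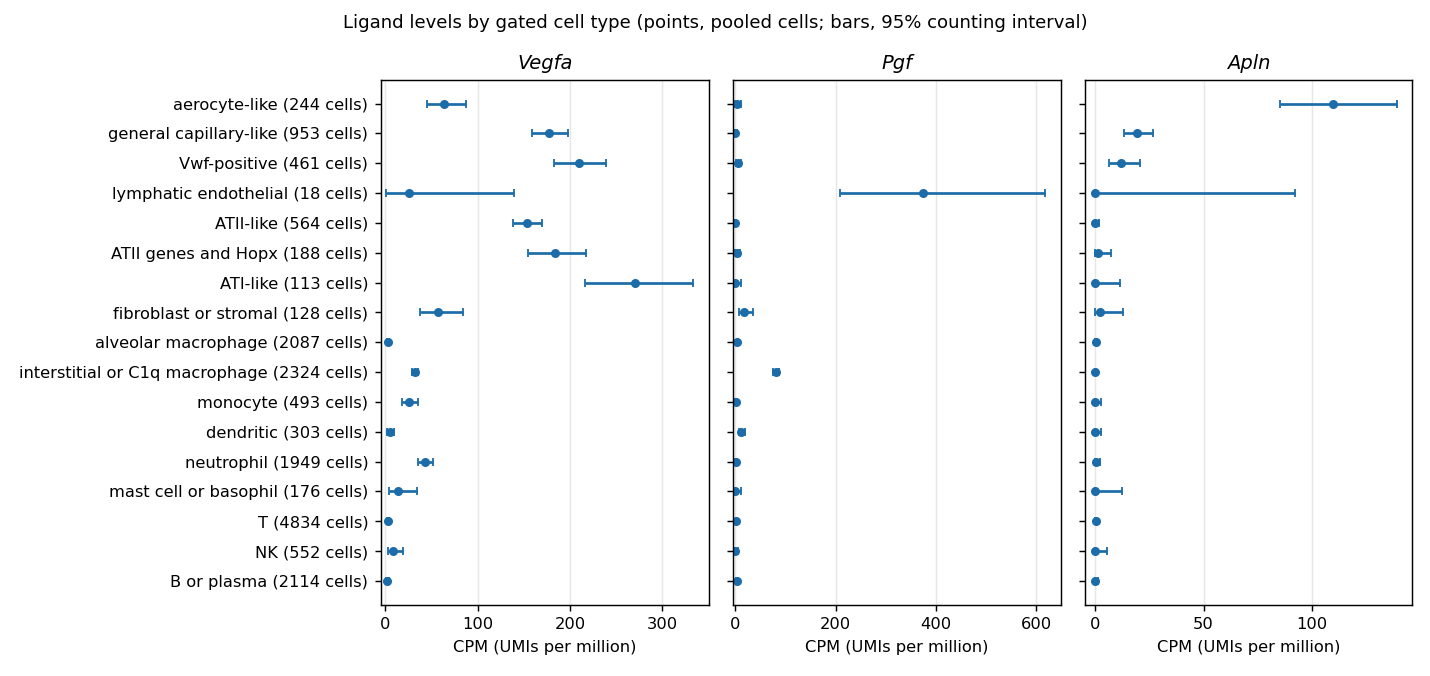
Levels of Vegfa, Pgf and Apln in 17 gated cell types on linear axes of CPM, each panel with its own scale; points are pooled cells and bars the exact 95% counting interval. Vegfa has its highest estimate in ATI-like cells at 270 CPM, not separated from that of Vwf-positive cells at 209 CPM, with several epithelial and endothelial types between 153 and 209 CPM, Pgf is seen in interstitial or C1q macrophages (81.5 CPM) and in 18 lymphatic-like cells (375 CPM), and Apln in aerocyte-like cells (110 CPM).

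Among the receptors, 6 of 7 were largely confined to endothelium. Levels in endothelial cells over all other assigned cells were 448 against 1.28 CPM for Kdr (log2 ratio 8.45, 8.07 to 8.85), 649 against 4.77 CPM for Flt1 (7.09, 6.89 to 7.30) and 53.2 against 0.155 CPM for Flt4 (8.43, 7.36 to 9.76). Tek stood at 228 against 0.420 CPM (9.08, 8.43 to 9.82), Tie1 at 254 against 1.13 CPM (7.82, 7.41 to 8.25) and Aplnr at 90.2 against 0.309 CPM (8.19, 7.42 to 9.08). Nrp1, a co-receptor of VEGF-A and of class 3 semaphorins, had the smallest ratio of the receptors, at 506 against 43.9 CPM (3.53, 3.44 to 3.62). With each cell counted equally, the log2 ratio was 4.04 for Nrp1 and 7.44 for Flt1.

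With 2-fold on log2(CPM + 10) as the threshold, among genes at 20 CPM or more in either group, 9 of the 10 members were higher in endothelial cells than in other cells and none was lower. Over all 7047 genes that passed this filter the shares were 17% higher and 13.2% lower, and the median ratio was 0.19 against 3.27 for the members. Only Vegfa, Nrp1 and Pgf reached 20 CPM in other cells. The rest passed the filter through endothelium alone and could not be called lower, so the member share is no test. Pgf was the member not past the threshold, at 7.86 CPM in endothelial cells against 21.3 CPM in other cells (log2 ratio of CPM -1.44, -2.0 to -0.92). The ligands Apln (7.62, 6.53 to 8.97) and Vegfa (2.60, 2.46 to 2.74) were also higher in endothelium than in the sum of all other cells, which holds lymphocytes and macrophages beside the epithelium.

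Outside endothelium, Nrp1 was the receptor with sizeable levels. Fibroblast or stromal cells stood at 263 CPM (217 to 316), ATII-like cells at 187 CPM (170 to 204), alveolar macrophages at 44.2 CPM and T cells at 38.5 CPM, against 2.46 CPM in B or plasma cells. Stromal cells were higher than ATII-like cells (log2 ratio 0.49, 0.19 to 0.79). T cells with a UMI of Foxp3, the factor of regulatory T cells, stood at 79.8 CPM (60.5 to 103) against 35.0 CPM (31.1 to 39.2) in other T cells, a 2.28-fold difference (1.69 to 3.04). Flt1 was low in leukocytes, with 13.8 CPM in monocytes; the 155 monocytes with a UMI of Treml4, Ace or Cd300e, genes of patrolling monocytes, had 29.8 CPM (12 UMIs, 15.4 to 52.1) against 7.64 CPM (8 UMIs, 3.30 to 15.0) in the other 338. Endothelial and epithelial genes moved with this split: Vwf stood at 14.9 against 0 CPM, Pecam1 at 19.9 against 6.68 CPM, Cdh5 at 12.4 against 7.64 CPM and Sftpc at 137 against 34.4 CPM, while Gpihbp1 had 0 and 1 UMI. Their part in the Flt1 difference was not tested. Kdr in mast cells or basophils was 13.5 CPM from 4 UMIs.

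**Figure D2:**
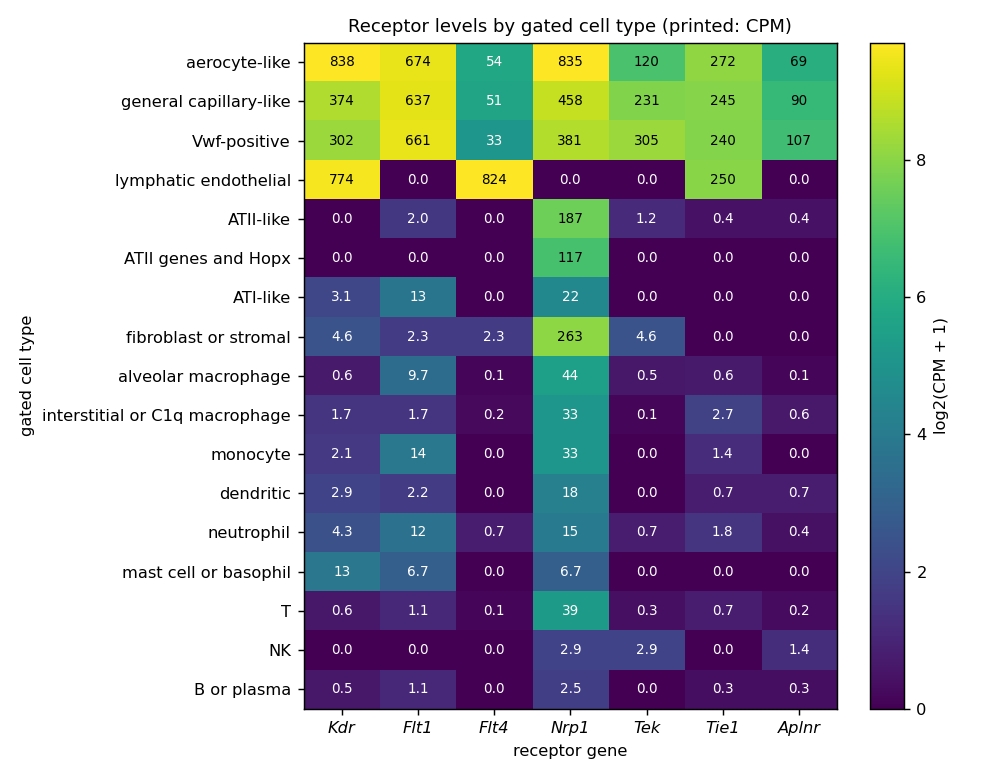
Levels of 7 receptor genes (columns) in 17 gated cell types (rows); color is log2(CPM + 1) and the printed values are CPM. Only the endothelial rows are bright for Kdr, Flt1, Flt4, Tek, Tie1 and Aplnr, while Nrp1 is also seen in stromal (263 CPM) and ATII-like cells (187 CPM); the lymphatic-like row has high Flt4 and Kdr and 0 UMIs of Flt1, Nrp1, Tek and Aplnr.

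Within the endothelium, aerocyte-like cells had higher Kdr, Nrp1 and Apln and lower Vegfa and Tek than general capillary-like cells, of 9 members that passed the low filter. By this rule of intervals that do not reach 0, 12.1% of all 6517 genes past the filter were higher and 7.06% lower. Apln, at 19.1 CPM in general capillary-like cells, passed the 20 CPM filter through aerocyte-like cells alone. It could not be called lower, so its place in this count is no test. Kdr stood at 838 CPM (767 to 914) in aerocyte-like, 374 CPM (347 to 402) in general capillary-like and 302 CPM (270 to 337) in Vwf-positive cells. The log2 ratio of aerocyte-like over general capillary-like cells was 1.16 (1.00 to 1.33). Apln had a ratio of 2.52 (1.92 to 3.15), and Nrp1, at 835 against 458 CPM, one of 0.87 (0.71 to 1.03). Vegfa ran the other way: its ratio was -1.47 (-1.99 to -0.99), so the capillary subset with the most Kdr had the least Vegfa among the blood endothelial subsets. Tek was lower in aerocyte-like cells too, at 120 CPM (93.8 to 151) against 231 CPM (210 to 254), a ratio of -0.95 (-1.33 to -0.59).

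For the other 4 members the interval reached 0. Flt1 stood at 674 and 637 CPM (log2 ratio 0.08, -0.08 to 0.24), Tie1 at 272 and 245 CPM (0.15, -0.11 to 0.41), Flt4 at 54.1 and 50.5 CPM (0.10, -0.52 to 0.68) and Aplnr at 68.9 and 89.9 CPM (-0.38, -0.91 to 0.11). Other settings changed this call for Aplnr and Flt1: Aplnr was lower in 3 of 10 settings with an interval, among them no upper cut-offs (-0.47, -0.87 to -0.08) and a gate at 3 UMIs (-0.92, -1.73 to -0.20), and Flt1 was higher in 1, with gates read on thinned cells (0.31, 0.08 to 0.53).

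By the 2-fold threshold, Apln and Kdr were higher and Vegfa lower in aerocyte-like cells, of 9 members past the filter. Of all 6517 genes past it, 2.53% were higher and 0.675% lower, with a median ratio of 0.06 over all genes and 0.08 over the members. Apln again passed the filter through aerocyte-like cells alone and could not be called lower. Markers of ATII cells moved with this comparison: their sum was 1599 CPM in aerocyte-like and 215 CPM in general capillary-like cells, with Sftpc at 1222 and 150 CPM, and 25.4 and 18.3% of cells had at least 1 such UMI. With those cells left out, the ratios were 1.12 for Kdr, 0.87 for Nrp1, 2.25 for Apln, -1.25 for Vegfa and -0.81 for Tek. The ratios depended on how strict the gate was. Among the 57 cells that passed the Car4 and Ednrb gate alone they were 1.98 for Kdr, 1.78 for Nrp1, 3.75 for Apln, -2.04 for Tek and -1.48 for Aplnr (-3.37 to -0.10), and with a gate at 1 UMI 0.91 for Kdr, 0.56 for Nrp1 and -0.61 for Tek. Keeping the cells above the upper cut-offs gave 0.82 for Kdr, 0.48 for Nrp1 and -0.51 for Tek. The gate gene Car4 also stood at 452 CPM in alveolar macrophages. TdTomato, high in those macrophages too, stood at 390 CPM in aerocyte-like and 157 CPM in general capillary-like cells. The part of macrophage RNA in the aerocyte gate was not tested.

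Vwf-positive cells were closer to general capillary-like cells. None of 8 members past the filter reached 2-fold, while 1.3% of 6393 genes were higher and 0.125% lower. Tek, the angiopoietin receptor, was highest in Vwf-positive cells at 305 CPM (273 to 339), with a log2 ratio of 0.40 over general capillary-like cells (0.19 to 0.61) and a 2.55-fold level over aerocyte-like cells (1.97 to 3.33). Kdr was lower, at -0.31 (-0.50 to -0.12), as were Nrp1 at -0.27 (-0.44 to -0.10) and Flt4 at -0.60 (-1.20 to -0.03). Of all genes past the filter, 8.02% were higher and 6.07% lower by the same rule. The calls of Kdr and Tek held in 10 of 10 other settings with an interval, that of Nrp1 in 9 and that of Flt4 in 7. With gates read on thinned cells, Nrp1 was at -0.14 (-0.35 to 0.06) and Flt4 at -0.13 (-0.79 to 0.50), and Flt4 was at -0.57 (-1.17 to 0.01) with doublets removed and -0.53 (-1.21 to 0.10) without the cells that had ATII UMIs. Flt1 (0.05, -0.08 to 0.19), Tie1 (-0.03, -0.25 to 0.19), Vegfa (0.24, -0.01 to 0.48) and Aplnr (0.25, -0.11 to 0.60) had intervals that reached 0. Vegfa was, however, higher in Vwf-positive cells in 5 of 10 other settings, for example without cells that had ATII UMIs (0.35, 0.07 to 0.63), Aplnr in 2, for example with Vwf at 2 UMIs (0.42, 0.02 to 0.82), and Flt1 in 1, on thinned cells (0.19, 0.03 to 0.34). Most Vwf-positive cells also had Gpihbp1 UMIs (386 of 487 that passed the Vwf gate). Among the 98 that did not pass another gate, Aplnr was higher than in general capillary-like cells (0.96, 0.43 to 1.46), and Kdr (-0.86, -1.32 to -0.44), Nrp1 (-0.85) and Flt4 (-1.53, -3.44 to -0.13) were lower.

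**Figure D3:**
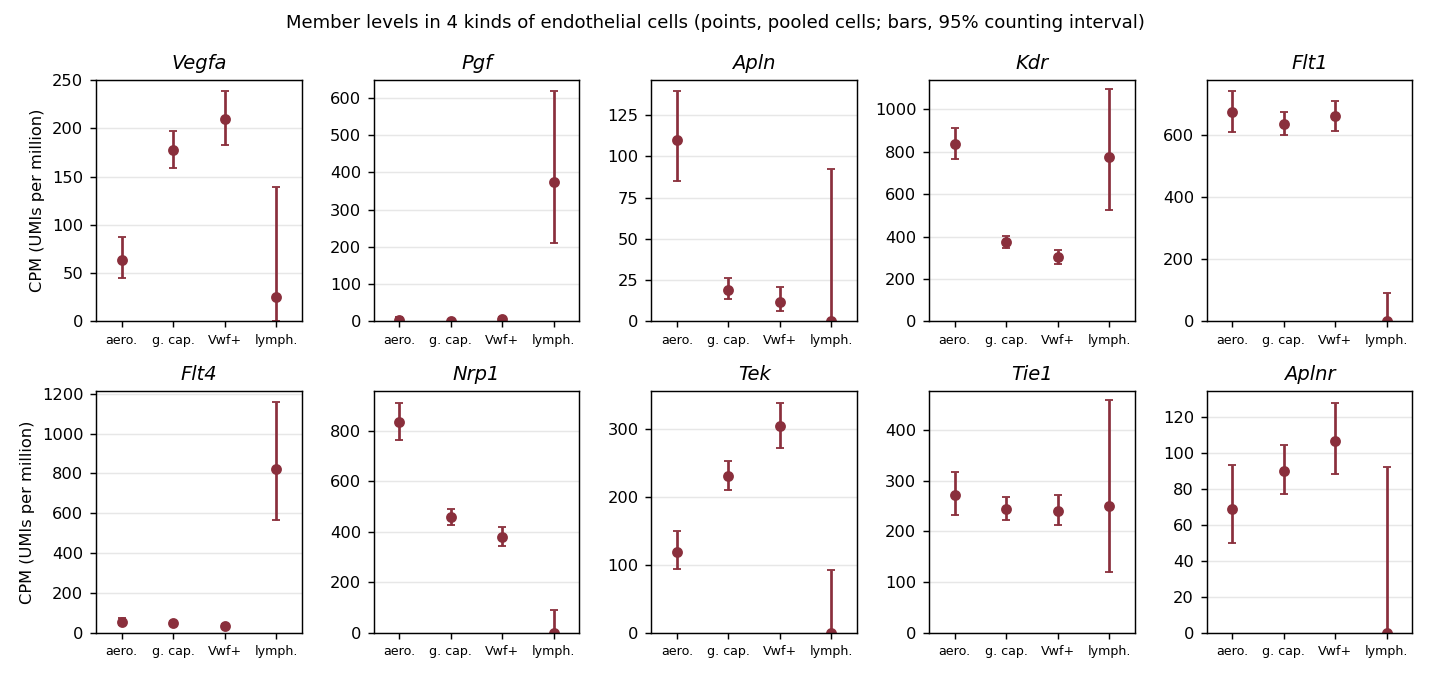
Levels of the 10 members in CPM (linear axes from 0, own scale per panel) in aerocyte-like (aero., 244 cells), general capillary-like (g. cap., 953), Vwf-positive (Vwf+, 461) and lymphatic-like (lymph., 18) endothelial cells; points are pooled cells and bars the exact 95% counting interval. Kdr, Nrp1 and Apln are highest among blood endothelial cells in the aerocyte-like subset, Vegfa and Tek are lowest there, and the intervals of Flt1 and of Tie1 overlap across the 3 blood subsets.

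**Figure D4:**
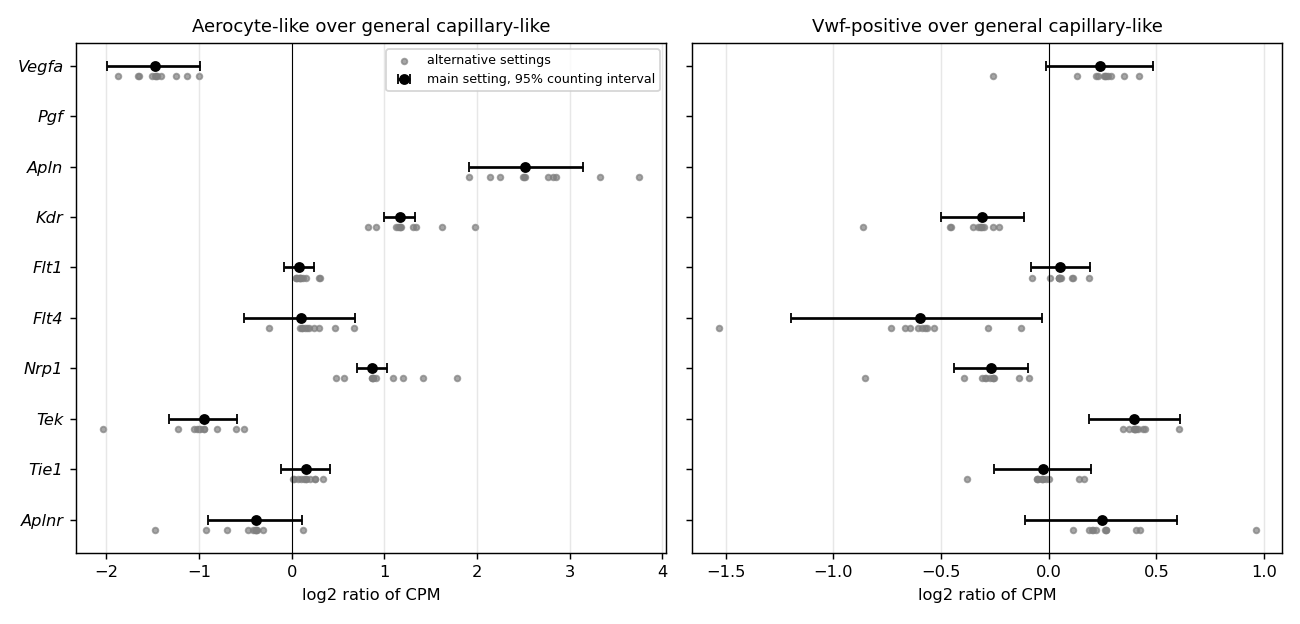
log2 ratios of CPM for the members that passed the low filter, aerocyte-like over general capillary-like cells (left) and Vwf-positive over general capillary-like cells (right, own scale); black points are the main setting with its 95% counting interval and grey points the alternative settings. On the left, Apln, Kdr and Nrp1 stay above 0 and Vegfa and Tek below 0 in every setting shown, and Aplnr lies on both sides; on the right, Tek is above 0 and Kdr, Nrp1 and Flt4 are below 0 in every setting shown.

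UMIs of a ligand and of its receptor were also counted in the same cells. After thinning to 1000 UMIs, 30 of 863 general capillary-like cells (3.48%) had UMIs of both Vegfa and Kdr, and 18 of 426 Vwf-positive cells (4.23%) did, against 4 of 232 aerocyte-like cells (1.72%) and 0 of 539 ATII-like cells, which allows a share of up to 0.557%. Vegfa was seen in 135 general capillary-like, 90 Vwf-positive and 10 aerocyte-like cells, and Kdr in 239, 99 and 108 of them. The joint counts depend on these single counts. Kdr and Flt1 were seen together in 65 of 232 aerocyte-like cells (28.0%), 118 of 863 general capillary-like cells (13.7%) and 50 of 426 Vwf-positive cells (11.7%). Apln and Aplnr were not seen in the same aerocyte-like cell, with 23 cells having the ligand and 15 the receptor of 232 (up to 1.29% allowed), and were seen together in 3 of 863 general capillary-like cells. Doublets were kept, and 20.1% of endothelial cells had an ATII marker UMI, so these shares count joint UMIs. The part of free RNA and doublets in them was not tested. Whether 2 genes met in a cell more or less often than their single counts would give was not tested either, so neither shared nor exclusive expression can be read from these counts.

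The 18 lymphatic-like cells, gated by Prox1, Mmrn1, Ccl21a and Reln, had a receptor pattern of their own. Flt4 stood at 824 CPM (33 UMIs, 567 to 1157), 16.3-fold above general capillary-like cells (10.6 to 24.5), and Kdr at 774 CPM (31 UMIs, 526 to 1099), 2.07-fold above them (1.40 to 2.97) and not separable from aerocyte-like cells (log2 ratio -0.11, -0.69 to 0.41). Tie1, with 10 UMIs at 250 CPM (120 to 459), was near the level of general capillary-like cells (0.03, -1.04 to 0.92). Nrp2, the co-receptor for VEGF-C in lymphatic vessels, stood at 1748 CPM against 124 CPM in general capillary-like cells. Flt1, Nrp1, Tek, Apln and Aplnr had 0 UMIs, which allows up to 74.9 CPM. The estimates in general capillary-like cells lay 8.50-fold (Flt1), 6.11-fold (Nrp1) and 3.09-fold (Tek) above that limit. These folds leave out the counting error of the capillary estimate and are not lower bounds. For Apln and Aplnr the same limit lies near or above the level of general capillary-like cells, and absence cannot be read from it.

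In the epithelium, Vegfa and Nrp1 were the members past the filter and differed in opposite directions. Vegfa was 1.76-fold higher in ATI-like cells over ATII-like cells (log2 ratio 0.82, 0.46 to 1.16), and cells with ATII genes and Hopx lay between them at 184 CPM, lower than ATI-like cells (0.55, 0.15 to 0.95) and not separable from ATII-like cells (0.26, -0.03 to 0.55). With Hopx required at 2 UMIs the ratio was 1.12, and gated on cells thinned to 1000 UMIs it was 1.16. The part of the ATII gate genes, which fill much of the total in ATII-like cells, in these ratios was not tested. Nrp1 stood at 187 CPM in ATII-like, 117 CPM (94.1 to 145) in the cells with both and 22.0 CPM (7 UMIs, 8.84 to 45.3) in ATI-like cells. Its ATII-like level was 8.48-fold above the ATI-like level (4.08 to 21.2). Nrp1 was past 2-fold, as were 6.97% of 6240 genes that were lower in ATI-like cells, while 11.7% were higher; the median ratio over all genes was 0.19. Ptprc stood at 78.6 CPM among ATI-like cells against 15.3 CPM among ATII-like cells, and with the cells that had a Ptprc UMI left out the ratios were 0.85 for Vegfa and -3.43 for Nrp1.

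Nrp2 and 2 semaphorin genes ran the other way from Nrp1. Of the other pathway genes listed (45 in the feature table), 19 passed the filter in this comparison. In ATI-like cells, 5 were past 2-fold higher (11.7% of all genes) and 2 lower (6.97% of all genes). Of these 5, only Klf2 passed the filter in both groups. Nrp2, Sema3a, Sema3e and Pfkfb3 passed it through ATI-like cells alone and could not be called lower, so the count of higher genes is no test. Nrp2 stood at 81.7 CPM (53.4 to 120) against 15.3 CPM (10.8 to 21.0), Sema3a, a ligand of Nrp1, at 81.7 CPM (26 UMIs) against 8.44 CPM (21 UMIs), and Sema3e, a ligand of Plexin-D1 that repels vessels, at 72.3 CPM (23 UMIs) against 4.42 CPM (11 UMIs). Pfkfb3, a glycolytic enzyme, and the flow-responsive factor Klf2 were also higher, at log2 ratios of 2.77 (1.08 to 4.43, from 7 and 8 UMIs) and 1.62 (1.26 to 1.96). Epas1, which encodes the hypoxia factor HIF-2α, stood at 34.6 CPM (11 UMIs) against 176 CPM (437 UMIs; -2.35, -3.36 to -1.49) and Bnip3 at 25.1 against 61.1 CPM (-1.28, -2.52 to -0.27). Cells with ATII genes and Hopx lay between the others for Nrp2 (36.0 CPM), Sema3a (36.0 CPM), Sema3e (13.3 CPM) and Epas1 (78.7 CPM).

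**Figure D5:**
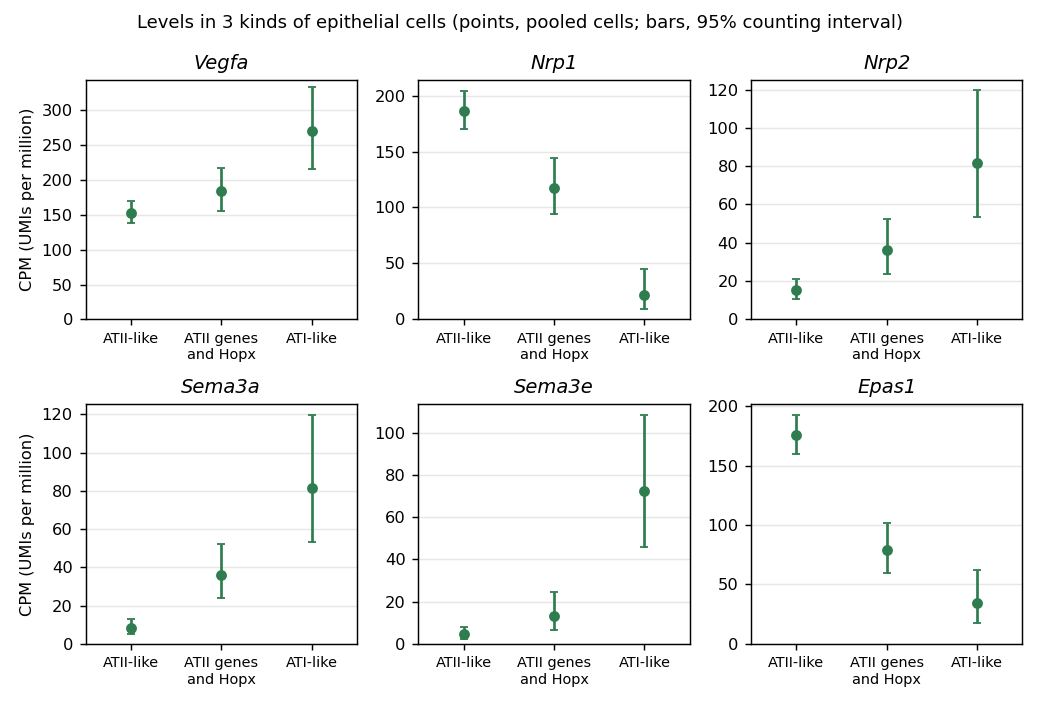
Levels of Vegfa, Nrp1 and 4 other pathway genes in CPM (linear axes from 0, own scale per panel) in ATII-like (564), ATII genes and Hopx (188) and ATI-like (113) epithelial cells; points are pooled cells and bars the exact 95% counting interval. Vegfa, Nrp2, Sema3a and Sema3e are highest in ATI-like cells and Nrp1 and Epas1 in ATII-like cells, with the middle group between in each panel.

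Most of the other pathway genes were also higher in the endothelium. Their list includes genes chosen as endothelial effectors and endothelial transcription factors, and many passed the filter through endothelium alone. The shares below are therefore a description and no test. Of 45 in the feature table, 35 passed the filter for endothelial over other cells, 29 were past 2-fold higher, against 17% of all genes past the filter, and 1, Thbs1, an inhibitor of vessel growth, was lower (14.2 against 42.1 CPM), against 13.2%, with a median ratio of 2.23 against 0.19 over all genes. The largest ratios of CPM were those of the endothelial factors Sox17 (462 against 0.420 CPM) and Sox18 (192 against 0.464 CPM), the phosphatase gene Ptprb (1041 against 3.42 CPM), whose product dephosphorylates Tie2, the semaphorin gene Sema3g (98.6 against 0.353 CPM), the ETS factor Erg (42.8 against 0.177 CPM) and Sema3f (176 against 0.905 CPM). All 6 Notch pathway genes were past 2-fold higher, against the same 17% of all genes, among them the tip cell ligand Dll4 at 90.2 against 0.508 CPM.

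Some ligands other than the members had separate sources. Vegfb was not confined in this way, at 15.5 CPM in endothelial cells and 20.3 CPM in other cells, among them ATII-like cells at 46.2 CPM. Vegfc, the ligand of VEGFR3, stood at 212 CPM in Vwf-positive cells (229 UMIs), 59.6 CPM in general capillary-like cells (112 UMIs) and 32.8 CPM in aerocyte-like cells (20 UMIs), a 3.56-fold difference between the first 2 (2.83 to 4.51), and was the 1 of 33 pathway genes past 2-fold in that comparison, where 1.3% of all genes were higher. Angpt1, which activates Tie2, stood at 77.7 CPM in fibroblast or stromal cells (34 UMIs) and 0.507 CPM in endothelial cells (2 UMIs). Angpt2, which can oppose it, stood at 15.7 CPM in endothelial cells (62 UMIs), and Angpt4 and Apela, the second ligand of Aplnr, had 0 UMIs in all assigned cells. In aerocyte-like against general capillary-like cells, 0 of 33 pathway genes past the filter were higher by 2-fold (2.53% of all genes), and Sema3g (45.9 against 108 CPM) and Ptprb (431 against 976 CPM) were lower (0.675% of all genes). Tek and Ptprb thus had the same order, lowest in aerocyte-like cells and highest in Vwf-positive cells, where Ptprb reached 1576 CPM.

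The genes with the most similar profile to each member were found by Pearson's r of log2(CPM + 10) over the 16 cell types with enough cells, among 6383 genes at 50 CPM or more in at least 1 type. These types come from 1 matrix, differ in depth and share the contrast of endothelium with all else, so r is a description only. Vegfa was nearest to Hbegf (r = 0.952), Amotl2 (0.930) and Oaz2 (0.920), and Pgf to the chemokine genes Ccl8 (0.940), Ccl12 (0.877) and Ccl7 (0.867). Apln was nearest to Ednrb (0.978), itself a gate gene, Ccdc184 (0.974) and Meox1 (0.962), and Kdr to Ackr2 (0.995), Shank3 (0.991) and Hecw2 (0.990). Flt1 was nearest to Ripply3 (0.985), Flt4 to Emcn (0.997), an endothelial gate marker, Nrp1 to Trim2 (0.930), Tek to Armcx4 (0.995), Tie1 to Ccm2l (0.999) and Aplnr to Mmrn2 (0.998). Among members, Tek and Aplnr were the nearest pair at 0.995, and Vegfa had values between -0.107 with Pgf and 0.633 with Nrp1.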

How the data were processed

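Microdissected tumors were dissociated and viable (DAPI-negative) cells were sorted and loaded on the 10x 3′ v3 kit. The authors counted reads against mm10 plus reporter sequences using Cell Ranger 3.0.2, per the submitters' processing notes and the file header, and deposited raw UMI counts per gene and cell as 1 matrix pooled over 4 mice. The deposited feature table pairs gene IDs with symbols, and these other columns carried no values. Columns of another sample were absent. Each cell had 500 to 46658 UMIs, and the pooled sum per type sets the precision of each CPM.

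Cells with at least 200 genes were kept, and those above the 98th percentile of genes (2713) or of mitochondrial share (13.4%) were left out. A cell took the lineage with the most detected markers of 8 (at least 2, no tie); 555 tied cells and 1107 cells under the minimum were left out, as were pericyte or smooth muscle cells (5) and ciliated or club cells (5). UMIs were summed per type to CPM. Poisson, Clopper-Pearson and conditional binomial intervals (95%) cover counting error only; where 0 UMIs or cells were seen, 3 set the limit. Shares were taken after thinning cells to 1000 UMIs, leaving out shallower cells. Doublets stayed in the reported values; Scrublet (in scanpy 1.11.5) called 181 of 20299 cells (0.892%), and pooled libraries are not what it models. The ratio code was tested on simulated data. Python 3.11.15, numpy 2.4.6 and scipy 1.17.1 were used.

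The 10 members, the 45 other pathway genes and the marker lists were chosen with earlier results of these data known. All members are named. Other pathway genes are named where past 2-fold, or, where over 6 are, the 6 with the largest ratio of CPM. Dll4, the angiopoietins, Apela, Vegfb and Vegfc are named as ligands, a choice made after their values were seen. The 3 nearest genes by profile were taken for each member, with 1 printed for some. The grouping of mice was read from the labels but could not be used. A further allele shared by all mice is not reported here. Other settings tried were 500 genes as the minimum, upper cut-offs dropped, 3 lineage markers, gates on thinned cells, doublets removed, means over cells, aerocyte gates at 1 and 3 UMIs, cells passing 1 endothelial gate, Vwf or Hopx at 2 UMIs and no low filter. Leaving out endothelial cells with ATII UMIs or epithelial cells with Ptprc UMIs, and splitting ATII sums at 2000 or 50000 CPM, were added after the data were seen. Within the ATII split, 57 epithelial cells lay between 5000 and 20000 CPM.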

Additional observations from a re-analysis of the deposited data

How the results depend on the processing

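Of 415 values recomputed under an alternative, 352 lay inside the reported value's counting interval (counts of genes within 1.5 times), 63 moved and none of the ratios whose interval excluded 0 changed direction. Between endothelial subsets, the intervals of Nrp1, Flt4, Flt1, Vegfa and Aplnr gained or lost 0 under some settings, as given above. The cause of each move was not tested. No paired analysis was possible because cells are not tied to mice. Depth limits Flt4, Apln, Aplnr and the 18 lymphatic-like cells most.

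Without upper cut-offs, the aerocyte-like over general capillary-like log2 ratios were 0.82 (Kdr), 0.48 (Nrp1) and -0.51 (Tek), Nrp1 in endothelial over other cells was 3.35, 9 genes were lower by 2-fold in aerocyte-like cells, and aerocyte-like levels were 70.7 (Apln), 658 (Kdr) and 632 CPM (Nrp1). With gates read on thinned cells, the aerocyte-like ratios were 3.32 (Apln), 1.63 (Kdr), 0.31 (Flt1) and 1.42 (Nrp1), with 379 genes higher and 184 lower; 22 genes were lower in Vwf-positive cells; endothelial ratios were 3.43 (Nrp1) and 7.16 (Tie1); Vegfa in ATI-like over ATII-like cells was 1.16, at 361 CPM in ATI-like cells; and levels were 212 (Apln), 1174 (Kdr), 814 (Flt1) and 1204 CPM (Nrp1) in aerocyte-like and 348 CPM (Tek) in Vwf-positive cells.

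Means over cells gave endothelial ratios of 3.0 (Vegfa), -0.83 (Pgf), 7.44 (Flt1), 4.04 (Nrp1) and 8.37 (Tie1), aerocyte-like ratios of 1.34 (Kdr) and 1.09 (Nrp1), a Vwf-positive ratio of -0.093 (Nrp1), and levels of 957 (Kdr), 750 (Flt1) and 1059 CPM (Nrp1) in aerocyte-like and 343 CPM (Tek) in Vwf-positive cells. An aerocyte gate at 1 UMI gave 0.91 (Kdr), 0.56 (Nrp1) and 0.12 (Aplnr), with 91 genes higher and 12 lower; at 3 UMIs it gave 1.20 (Nrp1) and -0.92 (Aplnr), with 289 higher and 110 lower.

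With cells passing 1 endothelial gate (57 aerocyte-like, 98 Vwf-positive), aerocyte-like ratios were 3.75 (Apln), 1.98 (Kdr), 0.30 (Flt1), 1.78 (Nrp1), -2.04 (Tek) and -1.48 (Aplnr), with 914 genes higher and 505 lower, and Vwf-positive ratios were -0.26 (Vegfa), -0.86 (Kdr), -1.53 (Flt4), -0.85 (Nrp1), -0.38 (Tie1) and 0.96 (Aplnr), with 298 higher and 236 lower; fewer cells widen counting error in these counts by construction. Vwf at 2 UMIs gave 31 genes lower in Vwf-positive cells, and leaving out endothelial cells with ATII UMIs gave 14.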
